A study of Mus musculus with 11 samples.

Results

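*Ascl2*, *Atoh1*, *Atoh7*, *Neurog3*, *Olig1*, *Olig2*, *Olig3*, *Ptf1a* and *Bhlhe22* are genes of the proneural and Olig families of basic helix-loop-helix (bHLH) transcription factors, and their H3K27me3 was described over 4 regions of the embryonic mouse forebrain. The genes were taken from a list of names and are 9 of 21755 protein-coding genes on chromosomes 1 to 19 and X. Each gene was given a window of its body and 10 kb on either side in GRCm38 (mm10), and the share of that window under H3K27me3 peaks is called its window coverage. *Olig1*, *Olig2* and *Bhlhe22* were treated as the 3 members expressed in the forebrain. *Atoh1*, *Atoh7*, *Neurog3*, *Olig3* and *Ptf1a* were treated as the 5 members known mainly from other neural regions, and *Ascl2*, known from the trophoblast, was described apart.

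Proteins of the bHLH families bind a short DNA motif, the E-box, as dimers. The proneural members pair with broadly expressed E proteins and drive progenitors towards neurons of particular types, the Olig proteins act mainly as repressors that pattern progenitors and specify motor neurons and oligodendrocytes, and Id proteins, which lack the DNA-binding part, hold E proteins away from their partners. H3K27me3 is a histone modification written by the Polycomb repressive complex PRC2, and it is known from developmental transcription factor genes that are kept silent in a tissue.

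The study collected 11 samples from wild-type C57BL/6J embryos, with 2 samples from the medial ganglionic eminence (MGE) and 3 each from the caudal (CGE) and lateral (LGE) ganglionic eminences and the cortex (CTX). The ganglionic eminences are the ventral neurogenic domains of the forebrain, and CTX is its dorsal part. H3K27me3 was profiled by CUT&Tag, in which an antibody guides a transposase to modified nucleosomes so that DNA around them is tagged and sequenced. The study's methods place this assay at E12.5, whereas the labels name E12.5 and E14.5 without an age per sample, and they also speak of nuclei of the regions being combined in equal numbers although every sample carries 1 region's name. The methods describe a pair of biological replicates per region, with embryos pooled, and of the 3 samples of CGE, LGE and CTX, 2 share a replicate number, so the samples are not all independent. Broad peaks were called by the authors after merging each region's samples, so there is 1 list per region, replicates cannot be compared, and no test was possible. The lists hold no read counts for single peaks. The reads per library that the methods state, summed by region, rank CGE first, then CTX, LGE and MGE, which is also the order of the bases the lists cover, and the part of depth in that order was not tested. They differ in extent, from 15384 peaks over 24.5 Mb in MGE to 19196 peaks over 32.9 Mb in CGE, and in strength, with a median −log10 q between 3.38 (MGE) and 4.61 (CGE). In a mixed tissue, a peak present in fewer cells and a peak with less signal per cell cannot be told apart.

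The sequences shown lie upstream of *Olig2*, *Olig3* and *Atoh7*, all on the plus strand of GRCm38. They are printed 5′ to 3′ with the bases under a peak in all 4 lists in capitals, and none overlaps an annotated exon. The 300 bases upstream of the *Olig2* 5′ end (chr16:91225157-91225456) hold the edge of a peak, with 163 bases covered in all 4 lists. The 300 bases before the MGE edge of that peak (chr16:91224856-91225155) belong to a stretch that no list covered. The 300 bases upstream of *Olig3* (chr10:19356233-19356532) were covered in full in every list. Those upstream of *Atoh7* (chr10:63099351-63099650) were covered in full in MGE, CGE and CTX but over only 97 bases in LGE.
Olig2 upstream: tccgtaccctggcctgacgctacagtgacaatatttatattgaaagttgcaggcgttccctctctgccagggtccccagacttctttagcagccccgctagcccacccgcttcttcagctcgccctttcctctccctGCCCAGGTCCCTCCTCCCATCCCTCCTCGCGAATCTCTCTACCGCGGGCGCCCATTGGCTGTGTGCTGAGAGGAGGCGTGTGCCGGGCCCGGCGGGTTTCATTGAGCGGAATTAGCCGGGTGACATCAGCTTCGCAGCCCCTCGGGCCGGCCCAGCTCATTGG
Olig2 gap: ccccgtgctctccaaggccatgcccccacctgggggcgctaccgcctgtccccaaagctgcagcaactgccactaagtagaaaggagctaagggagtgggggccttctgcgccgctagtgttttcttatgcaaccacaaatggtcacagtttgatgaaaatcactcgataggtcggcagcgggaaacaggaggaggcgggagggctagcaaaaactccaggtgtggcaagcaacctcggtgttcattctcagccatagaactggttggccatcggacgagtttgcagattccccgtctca
Olig3 upstream: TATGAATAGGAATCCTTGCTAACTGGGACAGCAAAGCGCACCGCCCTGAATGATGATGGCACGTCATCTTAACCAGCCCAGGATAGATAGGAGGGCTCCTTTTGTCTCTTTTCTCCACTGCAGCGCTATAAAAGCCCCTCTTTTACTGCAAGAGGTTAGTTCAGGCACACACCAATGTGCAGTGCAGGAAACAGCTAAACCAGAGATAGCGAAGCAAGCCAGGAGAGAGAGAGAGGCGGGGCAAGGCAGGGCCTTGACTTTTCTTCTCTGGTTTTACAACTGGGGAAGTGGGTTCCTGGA
Atoh7 upstream: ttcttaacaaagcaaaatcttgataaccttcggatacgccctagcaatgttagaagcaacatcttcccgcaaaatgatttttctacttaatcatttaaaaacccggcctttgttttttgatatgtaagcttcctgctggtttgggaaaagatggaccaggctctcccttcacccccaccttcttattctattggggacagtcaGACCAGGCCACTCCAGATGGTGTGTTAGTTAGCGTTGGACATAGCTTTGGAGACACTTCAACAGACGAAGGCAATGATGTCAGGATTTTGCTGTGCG

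The annotated 5′ end lay under a peak in all 4 lists for 9 of the 9 members and for 14.5% of all genes. These peaks were wide, with medians of 4533 bases (MGE), 4751 (CGE), 4617 (LGE) and 4748 (CTX), against 1248, 1445, 1252 and 1334 bases for all peaks of the same lists. Their fold enrichment over the local background, as the authors' peak caller gave it, had medians between 2.08 (CGE) and 2.29 (LGE), below the medians of all peaks, which lay between 2.71 (CGE) and 2.99 (MGE). By contrast, the −log10 q of these 5′-end peaks had medians of 21.9 (MGE), 51.2 (CGE), 38.3 (LGE) and 40.4 (CTX). For all peaks the medians were 3.38, 4.61, 4.21 and 3.81. The members' windows held 18 peaks (MGE), 19 (CGE), 19 (LGE) and 15 (CTX).

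**Figure D1:**
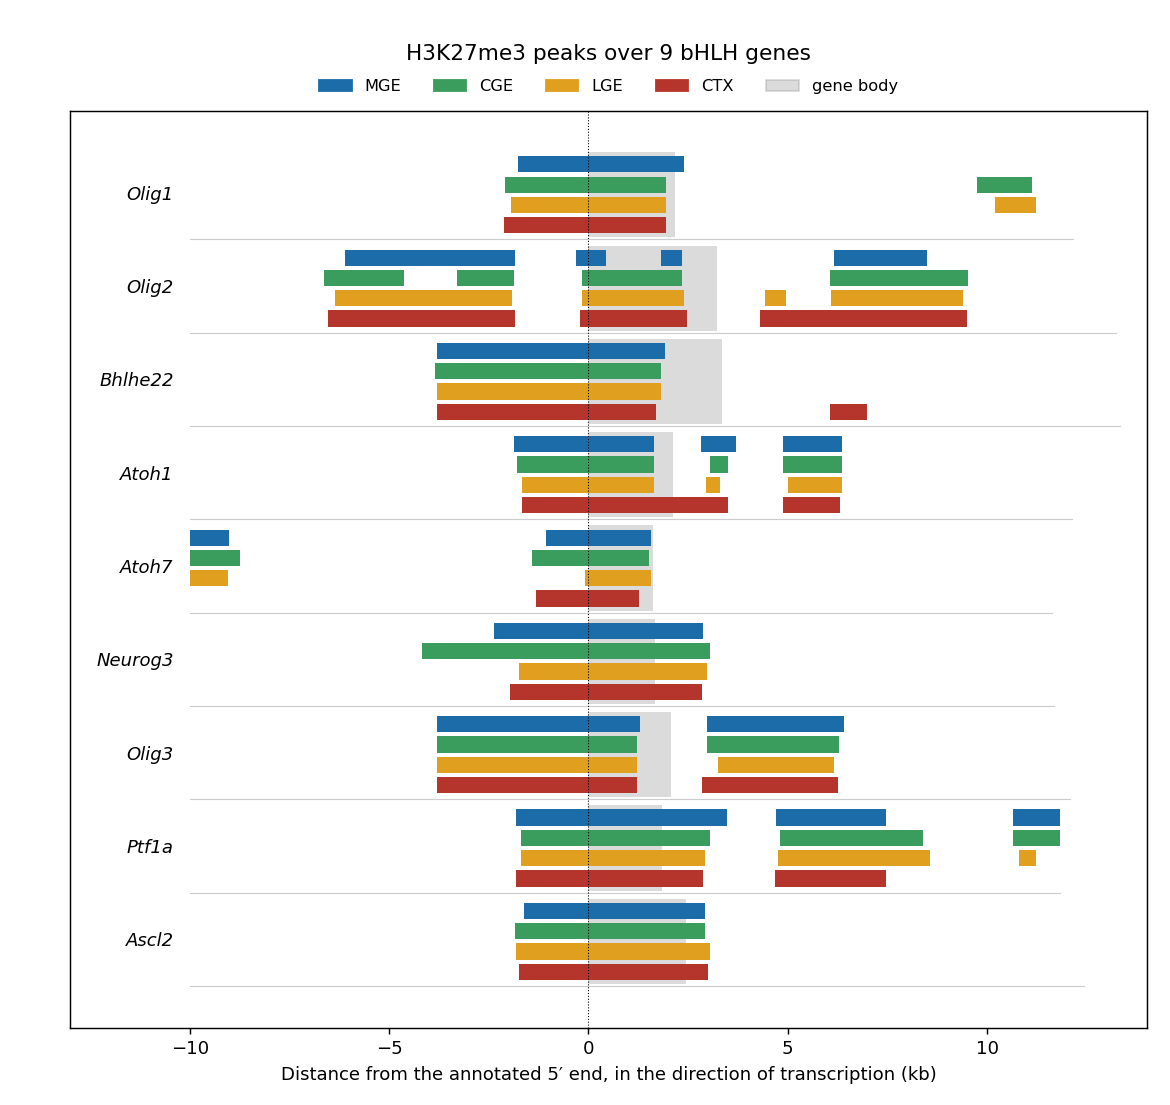
H3K27me3 peaks over the windows of the 9 genes, with distance from the annotated 5′ end in kb on the x axis and 1 row per list (bars, peaks of MGE, CGE, LGE and CTX; grey, gene body; grey lines, extent of the window). A peak crosses the 5′ end of every gene in every list, and at *Olig2* no bar lies in the 1532 bases before it.

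*Olig2*, a repressor that patterns ventral progenitors and is required for oligodendrocytes and motor neurons (chr16:91225457-91228677, plus strand), had the widest range of window coverage among the members. Its window coverage was 33.9% (MGE), 40.5% (CGE), 46.6% (LGE) and 54.3% (CTX). CTX was highest and MGE lowest, and the CTX value was 13.9 percentage points above the mean of the 3 ganglionic eminences. MGE is also the region with the fewest reads, and the part of depth in this order was not tested. The 4 values were the same after the weakest peaks of the other lists were dropped until all lists had equal covered bases. That step left the MGE list unchanged and cannot restore bases that fewer reads left unlisted, so it does not address depth. The order seen at *Olig2* did not hold for its neighbour *Olig1*.

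The difference at *Olig2* came from several places in the window. Over the gene body, 29.6% of bases were covered in MGE, whereas the other lists had 73.2% (CGE), 74.3% (LGE) and 76.7% (CTX). The peak over the 5′ end was 738 bases wide in MGE and 2520, 2557 and 2694 bases wide in CGE, LGE and CTX. In MGE it stopped 436 bases into the gene, and a separate peak of 516 bases followed from 1.82 kb. Downstream, 1 peak ran from 4.30 to 9.51 kb in CTX, whereas the main downstream peak began between 6.06 and 6.16 kb in the other lists. CTX alone covered 1322 bases of the window. MGE alone covered 79. LGE had a separate peak of 525 bases inside the stretch of the downstream CTX peak. With peaks less than 3 kb apart joined, window coverage was 46.4% (MGE), 53.6% (CGE), 67.8% (LGE) and 69.1% (CTX), so LGE and CTX were then close.

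The highest enrichment at *Olig2* followed another order than the extent. The downstream peak had a fold enrichment of 3.17 (MGE), 2.30 (CGE), 2.48 (LGE) and 1.81 (CTX), so the narrowest one, 2340 bases in MGE, had the highest value. The peak over the 5′ end had a low fold in every list, at 1.74 (MGE), 1.46 (CGE), 1.52 (LGE) and 1.46 (CTX). Its −log10 q was 5.15 (MGE), 10.4 (CGE), 11.8 (LGE) and 19.9 (CTX). Between 0.672% (CGE) and 2.38% (MGE) of the peaks in a list had a lower fold than this one. By −log10 q it ranked higher, with 62.2% (MGE) to 82.3% (CTX) of peaks below it.

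Directly upstream, *Olig2* had the lowest promoter coverage of the members in MGE, CGE and CTX, although between 80.4% (CGE) and 86.8% (MGE) of all genes had less. Its promoter, taken as the 2 kb before the 5′ end, was covered over 23.3% (MGE), 14.6% (CGE), 12.1% (LGE) and 19.5% (CTX), and a gap separated the peak over the 5′ end from the next peak upstream. The gap measured 1535 bases (MGE), 1708 (CGE), 1758 (LGE) and 1611 (CTX). The 1532 bases common to all 4 (chr16:91223624-91225155), whose last 300 bases are the second sequence printed above, held 54 CpG dinucleotides, or 35.3 per kb. Bases of the window covered in all 4 lists held 42.0 CpG per kb. Bases covered in none, which include the gap and its 54 of their 161 CpG, held 15.5. The gap was thus CpG-rich for an uncovered stretch of this window.

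*Olig1*, which acts with *Olig2* in oligodendrocyte development (chr16:91269772-91271933, plus strand), lies 41.1 kb downstream of it. Window coverage stood at 18.8% (MGE), 24.5% (CGE), 22.2% (LGE) and 18.4% (CTX). MGE and CTX were nearly equal, and the higher values of CGE and LGE came with a second peak between 9.74 and 11.2 kb past the 5′ end, of 1382 bases in CGE and 1031 in LGE, which MGE and CTX lacked. That peak was weak, with a −log10 q of 2.85 in CGE and 2.05 in LGE. The peak over the 5′ end covered 88.4% of the promoter (MGE), 100% (CGE), 97.1% (LGE) and 100% (CTX). The interval between the 2 genes was covered over 20.4% (MGE), 25.1% (CGE), 26.6% (LGE) and 30.7% (CTX), which is the order seen at *Olig2*. The 21094 bases of it outside both windows kept that order, with 4262, 4743, 5165 and 5277 covered bases.

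*Bhlhe22*, a repressor of the Olig-related group that acts in postmitotic cortical projection neurons and in interneurons elsewhere (chr3:18054174-18057517, plus strand), varied little. Peaks covered 24.5% (MGE), 24.3% (CGE), 24.1% (LGE) and 27.4% (CTX) of its window. A single peak of 5618 to 5721 bases accounted for the ganglionic eminences, the matching CTX peak had 5477 bases, and its upstream edge lay within 61 bases in the 4 lists. CTX had a further peak of 923 bases at 6.05 kb, with a −log10 q of 3.52. The promoter was covered in full in every list.

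*Olig3*, which specifies dorsal neurons of the hindbrain and spinal cord (chr10:19356533-19358604, plus strand), had high coverage of nearly constant extent. Its window was covered over 38.6% (MGE), 37.7% (CGE), 36.0% (LGE) and 38.1% (CTX). The upstream edge of the peak over its 5′ end moved by 22 bases among the lists, from −3809 to −3787 bases relative to the 5′ end, and the third sequence printed above lies inside that peak. A second peak lay downstream in every list, 2924 bases wide in LGE and between 3319 and 3425 in the others.

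*Ptf1a*, which specifies GABAergic neurons of the cerebellum and dorsal horn and is also needed for the pancreas (chr2:19445663-19447501, plus strand), was lowest in CTX. Its window coverage was 42.3% (MGE), 43.6% (CGE), 40.5% (LGE) and 34.3% (CTX). A peak beginning 10.7 to 10.8 kb past the 5′ end was listed in the 3 ganglionic eminences and not in CTX. The middle peak of the window had a low fold in every list, between 1.33 (CGE) and 1.50 (CTX). At a q-value under 0.001 the window values were 29.6% (MGE), 43.6% (CGE), 21.1% (LGE) and 34.3% (CTX), so that CTX was no longer lowest. The gene body was covered in full in all 4 lists.

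*Atoh1*, the proneural gene of cerebellar granule neurons and inner-ear hair cells (chr6:64729125-64731245, plus strand), was highest in CTX. Window coverage stood at 26.6% (MGE), 24.3% (CGE), 22.5% (LGE) and 29.8% (CTX). In CTX 1 peak of 5168 bases ran from the promoter to 3.50 kb past the 5′ end, whereas the ganglionic eminences had a peak ending at 1.64 to 1.65 kb and a small separate peak of 339 to 883 bases near 3 kb. This joining gave CTX 1161 bases that no other list covered. With peaks less than 3 kb apart joined, the CTX difference from the mean of the ganglionic eminences was −0.75 percentage points in place of 5.35.

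*Neurog3*, the proneural gene of pancreatic endocrine cells that is also used in the hypothalamus (chr10:62133090-62134763, plus strand), was highest in CGE. Peaks covered 24.2% (MGE), 33.4% (CGE), 21.8% (LGE) and 22.3% (CTX) of its window. Each list had 1 peak there, and the CGE peak, 7229 bases wide, began at −4176 bases from the 5′ end, against −2376 to −1747 in the others. CGE alone covered 1870 bases. *Fam241b*, on the opposite strand, spans 20831 bases of this window, so the peak lies over both genes. It was the 1 protein-coding neighbour in any member's window.

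*Atoh7*, the proneural gene of retinal ganglion cells (chr10:63099651-63101279, plus strand), had the lowest window coverage. It was 16.7% (MGE), 19.3% (CGE), 12.1% (LGE) and 11.9% (CTX). LGE and CTX were both low but in different places. In LGE the peak over the 5′ end began at −97 bases from the 5′ end, as the capitals of the fourth sequence show, against −1060 (MGE), −1405 (CGE) and −1305 (CTX). In CTX the second peak, which ended at −9.05 to −8.74 kb in the ganglionic eminences, was not listed. The peak over the *Atoh7* 5′ end had a higher fold than that of any other member in each list, at 3.53 (MGE), 3.48 (CGE), 3.89 (LGE) and 2.88 (CTX).

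*Ascl2*, a factor of the trophoblast and of intestinal stem cells (chr7:142966829-142969264, minus strand), had the smallest range. Its window was covered over 20.2% (MGE), 21.2% (CGE), 21.7% (LGE) and 21.2% (CTX). A single peak of 4533 to 4871 bases covered the whole gene body in every list.

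**Figure D2:**
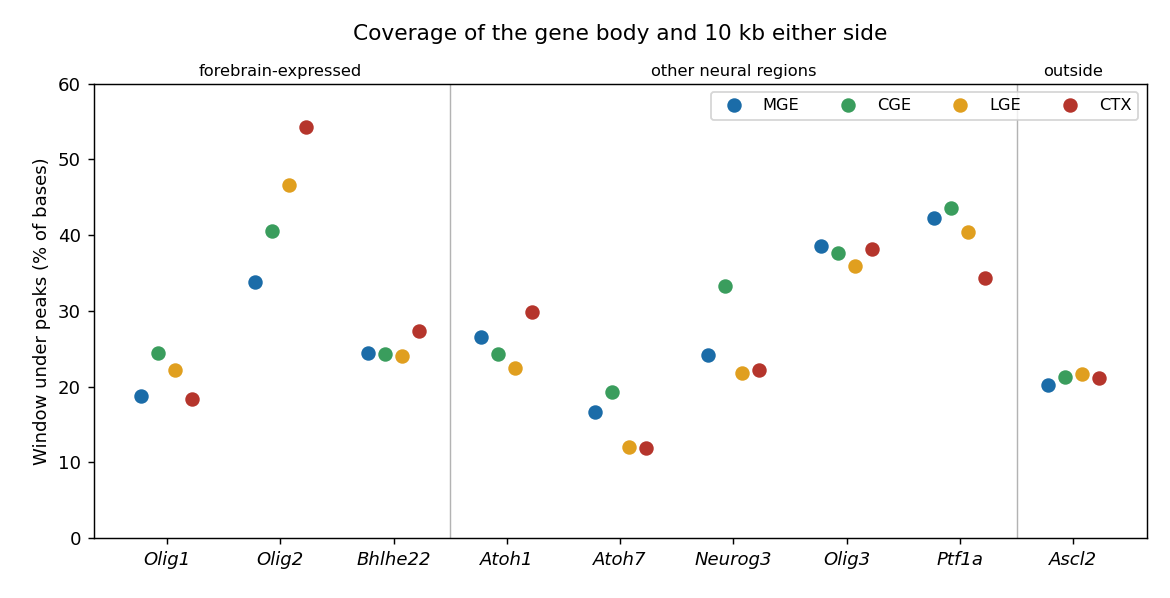
Window coverage of each gene (y axis, % of bases of the gene body and 10 kb either side under peaks) in the lists of MGE, CGE, LGE and CTX (1 point per merged list, no error available), with genes grouped by where they are known to act. *Olig2* spans 33.9% to 54.3%, whereas *Ascl2* spans 20.2% to 21.7%.

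All 9 windows lay high among protein-coding genes. Between 52.8% (CTX) and 56.7% (MGE) of genes had no covered base, the median gene was at 0% in every list, and the 95th percentile lay between 12.7% (MGE) and 15.7% (CGE). The lowest member value was that of *Atoh7* in CTX, which 93.1% of genes fell below. At least 20% of the window was covered for 7 members (MGE), 8 (CGE), 8 (LGE) and 7 (CTX), and the same held for 2.27%, 3.16%, 2.53% and 2.58% of all genes. All 4 lists reached 20% for 7 members, and *Olig1* and *Atoh7* fell short in at least 1.

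**Figure D3:**
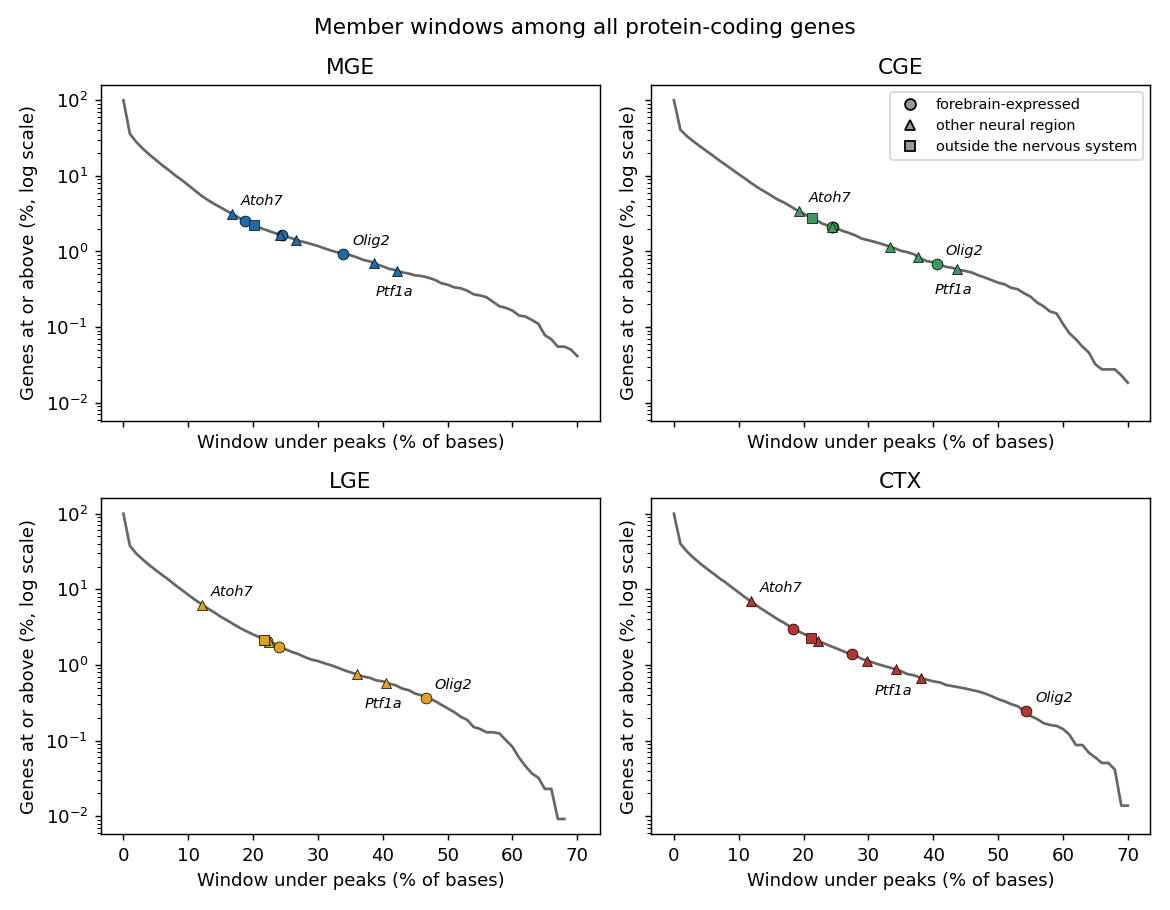
Share of protein-coding genes (y axis, %, log scale) whose window coverage is at or above the value on the x axis (% of bases), drawn as a line for each list, with the 9 members as points. In CTX *Olig2* lies at 0.244% of genes and *Atoh7* at 6.94%.

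Promoters of the members were marked more often than those of all genes. At least 50% of the promoter was covered for 8 members (MGE), 8 (CGE), 7 (LGE) and 8 (CTX), against 6.47%, 8.33%, 6.52% and 7.14% of all genes. In all 4 lists together, 7 of the 9 promoters were marked, against 4.72% of all genes. *Olig2* passed in no list. *Atoh7* had 53.0% (MGE), 70.3% (CGE), 4.85% (LGE) and 65.3% (CTX), and so missed in LGE alone. The promoters of *Bhlhe22* and *Olig3* were covered in full in all 4 lists, and the other 5 members lay between 81.0% (*Ascl2* in MGE) and 100%. When at least 90% was asked, 2 members passed in all 4 lists.

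**Figure D4:**
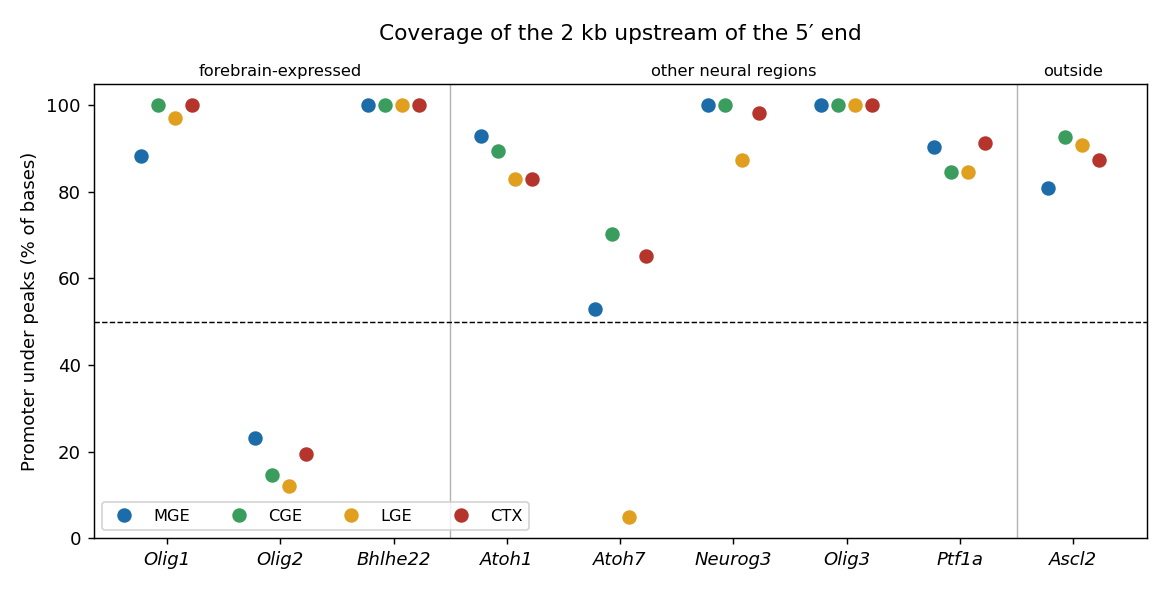
Promoter coverage of each gene (y axis, % of the 2 kb upstream of the 5′ end under peaks) in the 4 lists, with a dashed line at 50%. All points of *Olig2* (12.1% to 23.3%) and the LGE point of *Atoh7* (4.85%) lie under the line.

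The comparison of forebrain-expressed members with members of other neural regions asked whether genes used in the forebrain carried less H3K27me3 there. The median window coverage of the forebrain-expressed members was 24.5% (MGE), 24.5% (CGE), 24.1% (LGE) and 27.4% (CTX). For the members of other regions it was 26.6%, 33.4%, 22.5% and 29.8%. The other members were thus 2.11 percentage points higher in MGE, 8.84 higher in CGE and 2.42 higher in CTX, and the difference in LGE was −1.54 points. The CGE median of the other members is the value of *Neurog3*, which is also used in the hypothalamus. The grouping of *Neurog3* was not varied. The ranges of the groups overlapped in every list, for example 18.8% to 33.9% against 16.7% to 42.3% in MGE. With 20 kb on either side, the difference was negative in all 4 lists, from −12.6 points in LGE to −3.67 in MGE, so its direction rested on the size of the window. With 3 and 5 genes and 1 list per region, no test was made.

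Differences between regions were set beside those of other covered genes. *Olig2* was the 1 member whose highest and lowest lists differed by at least 20 percentage points, at 20.4, and 0.244% of all genes did so. Most genes had no peak at all. Among the 956 genes whose mean coverage was at least that of the lowest member (15.0%), 4.18% differed by as much. That set starts well below the coverage of *Olig2*. No set matched to its coverage was compared, so how unusual its difference is was not tested. Outside the members, *Neurog2* and *Sp8* also differed by at least 20 points. The remaining neural bHLH genes, partners, inhibitors and markers described below differed by less. The other members differed by 11.5 points (*Neurog3*), 9.29 (*Ptf1a*), 7.43 (*Atoh7*), 7.31 (*Atoh1*), 6.12 (*Olig1*), 3.35 (*Bhlhe22*), 2.67 (*Olig3*) and 1.51 (*Ascl2*). The median was 7.31 points over the members and 5.50 over the 956 genes. CTX was above the mean of the ganglionic eminences for 5 members and below it for 4. The lists differ in extent and the same count was not made over all genes, so this describes the members only. The sign changed under another setting for *Atoh1*, *Olig3*, *Olig1* and *Ptf1a*.

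The bases under peaks were largely the same in the 4 regions. Of the 67974 bases of member windows covered in any list, 45993 (67.7%) were covered in all 4, against 33.0% over chromosomes 1 to 19 and X. Bases covered in 1 list made up 12.3%, against 38.0%. The chromosome-wide values include many narrower peaks than those at the members, and no set of genes matched for coverage was compared. The share covered in all 4 was highest for *Ascl2* (92.4%) and *Olig3* (91.3%), followed by *Bhlhe22* (81.8%), *Ptf1a* (69.9%), *Atoh1* (68.6%), *Neurog3* (63.7%) and *Olig1* (61.5%), and was lowest for *Olig2* (49.3%) and *Atoh7* (32.2%). Between pairs of lists, the bases in both as a percentage of the bases in either (the Jaccard index) ranged over the members from 78.1% (CGE and CTX) to 84.5% (CGE and LGE). Over chromosomes 1 to 19 and X it ranged from 46.5% (MGE and CTX) to 60.1% (CGE and LGE). At *Atoh7* the index fell to 35.8% for LGE and CTX, which lacked different stretches.

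The members' start sites were rich in CpG. Over the 1 kb on each side of the start, the ratio of observed to expected CpG had a median of 0.695 over the members and 0.478 over all genes, and it was 0.630 over the 1027 genes with promoters marked in all 4 lists and 0.322 over the 14619 genes with no covered promoter base. It ranged from 0.517 at *Neurog3* to 0.779 at *Bhlhe22*. In every member's window the bases covered in all 4 lists held more CpG per kb than those covered in none, by 2.32-fold (*Olig3*) to 7.07-fold (*Bhlhe22*). The covered bases include the 5′ end of each member, and the same ratio was not computed for other genes, so it is no trait of the members. The E-box, searched as CANNTG, which reads the same class on both strands, occurred in the 300 bases upstream of 7 members, with 3 at *Bhlhe22* and 2 at *Ascl2*, and in those of 70.7% of all genes. The upstream sequence of *Olig2* printed above held none and the gap sequence held 4, which describes these letters only.

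The E proteins with which these proteins pair and their Id inhibitors had lower median window coverage than the members. It was 13.5% (MGE), 12.9% (CGE), 9.87% (LGE) and 9.52% (CTX), against 24.5%, 24.5%, 22.5% and 27.4% for the members. Among 6 genes of partners and inhibitors (*Tcf3*, *Tcf12* and *Id1* to *Id4*), none had a marked promoter in any list, and at least 20% of the window was covered for 0 in MGE and 1 in each other list. *Tcf12*, an E protein, had no covered base except 0.160% of its window in LGE. *Id4*, an inhibitor, was covered over 13.7% (MGE), 7.26% (CGE), 4.06% (LGE) and 1.83% (CTX). *Id3* had the opposite order, with 15.0% (MGE), 19.8% (CGE), 22.1% (LGE) and 23.9% (CTX). *Id1* ranged from 17.2% (CTX) to 18.6% (CGE) and *Id2* from 13.3% (MGE) to 20.7% (CGE). The values of *Id1* to *Id3* thus overlapped those of the lower members, *Olig1* and *Atoh7*.

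Among 11 other neural bHLH genes, the window was covered over at least 20% for 4 (MGE), 5 (CGE), 4 (LGE) and 5 (CTX), with medians between 16.3% and 17.8%, and the promoter was marked for 6, 4, 3 and 3. *Neurog1*, a proneural gene of sensory and cortical neurons, had its promoter covered in full in every list. *Neurog2*, the proneural gene of cortical projection neurons, was covered over 43.9% (MGE), 41.1% (CGE), 42.8% (LGE) and 22.9% (CTX), so CTX was lowest there, as it was at *Ptf1a*. *Neurod6* and *Nhlh1*, both genes of young neurons, had no covered promoter base in any list.

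For each forebrain-expressed member, the 3 genes with the nearest window coverage over the 4 lists were found by Euclidean distance. They were *Aes*, *Sncb* and *Cygb* for *Olig1* (2.16 to 2.65 percentage points away) and *Fxyd1*, *Foxd4* and *Lbx2* for *Bhlhe22* (1.94 to 2.33). For *Olig2* the nearest were *Sox1*, *Wnt10a* and *Tnfrsf25*, at 8.03, 10.6 and 10.7 points. Fewer genes are covered as highly as *Olig2* than as *Olig1* or *Bhlhe22*, so these distances do not show how unusual its pattern over the regions is. *Sox1*, a transcription factor of neural progenitors, was also lowest in MGE (35.2%) and highest in CTX (48.1%).

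Markers of the dissected regions were read as a check on the labels, which gave a mixed result. *Nkx2-1*, the MGE determinant, had its lowest window coverage in MGE (42.7%, against 50.3% to 54.3% elsewhere), and *Emx1*, a cortical gene, had its lowest in CTX (14.7%, against 25.3% to 28.5%). *Nr2f2* was lowest in CGE (28.7%, against 33.9% to 36.4%), whereas *Lhx6*, an MGE gene, and *Neurod2*, a cortical gene, were lowest in LGE, and *Sp8*, taken for LGE, was lowest in CTX. *Dlx2*, used in the ganglionic eminences, ranged from 41.9% in MGE to 49.1% in CTX. Promoter coverage did not separate the regions for *Nkx2-1* and *Lhx6*, at 100% in all 4 lists, and for *Emx1* it was 97.4% in CTX against 97.9% to 100% elsewhere. For *Dlx2* it was 0% in all 4 lists. It was highest in MGE for *Nr2f2* (100%, against 54.55% to 55.2% elsewhere), *Neurod2* (69.7%, against 18.75% to 30.5%) and *Sp8* (16.5%, against 0%). At least 20% of the window was covered for 7 of these 7 genes in each ganglionic eminence and for 5 in CTX. For 5 genes of endothelium, microglia and mesenchyme, no window reached 20%, and *Cdh5* had no covered base, but the promoter of *Col1a1*, a mesenchymal collagen gene, was covered in full in every list. H3K27me3 does not measure expression, and the part of other cell types in the members' values was not tested.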

How the data were processed

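H3K27me3 CUT&Tag peaks of 11 samples were available as 1 broad-peak list per region. The authors aligned reads to GRCm38 with Bowtie2, removed duplicates with Picard, merged the samples of each region with SAMtools and called broad peaks with MACS; deepTools is also named in the submitters' processing notes. The MACS version and control are not given in the sources used here. For each peak the deposited lists give a score, which was not used, a ratio of signal over local background called fold enrichment, and a q-value as its −log10, all as the authors' caller wrote them. Library depths stated in the methods differ between and within regions, with the most reads for CGE and the fewest for MGE, and merging weighs samples by their reads.

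Peaks on chromosomes 1 to 19 and X were read, and the share of bases under peaks was computed for each protein-coding gene of GENCODE M21 over its body with 10 kb either side (window) and over the 2 kb before its 5′ end (promoter). A window was called covered at 20% and a promoter marked at 50%. Sequences were read from the RefSeq copy of GRCm38, in which no peak passed a chromosome end. RefSeq's promoter table held the names of 7 of the 9 members, and no positions or sequences were compared with it. Python 3.11.15, numpy 2.4.6, pandas 2.3.3, pysam 0.24.0 and matplotlib 3.10.9 were used, and the coverage code was tested on simulated data. Named genes were the members, neural bHLH genes and their partners, region and cell type markers, neighbours, and the 3 genes nearest in coverage to each forebrain-expressed member. Members, lists and the sequences shown were chosen with earlier results of these data known. Alternatives were a q-value under 0.001, joined peaks, equal peak numbers or covered bases, other windows and thresholds, the mean in place of the median, and *Ascl2* with the other-region members. A value was taken as unmoved when within 1.5 times the one reported.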

Additional observations from a re-analysis of the deposited data

How the results depend on the processing

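No paired analysis was possible because the peaks were called on merged samples, and for the same reason no replicate was left out. The count of 7 promoters marked in all 4 lists became 2 when 90% of the promoter was asked. The count of 1 member differing by 20 points became 2 with a q-value under 0.001 (*Olig2* and *Ptf1a*), with 5 kb either side (*Olig2* and *Neurog3*), over the gene body plus 2 kb upstream (*Olig2* and *Atoh7*) and at 10 points (*Olig2* and *Neurog3*), and 0 with 20 kb either side and at 30 points.

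The difference between members of other regions and forebrain-expressed members depended on the window and summary. With 5 kb either side it was 5.70 points (MGE), 14.7 (CGE), −0.99 (LGE) and 6.49 (CTX), and with 20 kb it was −3.67, −7.96, −12.6 and −9.48. Over the gene body plus 2 kb upstream it was 11.8 in MGE, 8.52 in LGE and 22.9 in CTX. Joining peaks less than 3 kb apart gave 12.7 in MGE, 12.2 in LGE and 8.59 in CTX. The mean in place of the median gave 3.96 (MGE), 1.86 (CGE), −4.38 (LGE) and −6.07 (CTX). With *Ascl2* included it was 0.89 in MGE, 4.32 in CGE and −1.36 in CTX, and with equal covered bases it was 2.81 in CGE. CTX minus the mean of the ganglionic eminences changed sign for *Atoh1* (−0.75) and *Olig3* (−0.14) with joined peaks, and for *Olig1* (0.20) and *Ptf1a* (2.87) with a q-value under 0.001. The cause of these changes was not tested. Joining closed the *Olig2* gap by construction. The lists give no reads for single peaks, so a missing peak was not detected rather than absent.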
